A study of Rattus norvegicus with 4 samples.

Results

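The nuclear genes for the respiratory chain and the ATP synthase were followed across 4 hydrogels in cultured rat cortical cells. Genes were taken by name: Ndufa, Ndufb, Ndufc, Ndufs and Ndufv (complex I), Sdha to Sdhd (complex II), Uqc (complex III), Cox4 to Cox8 (complex IV) and Atp5 (ATP synthase), with named pseudogenes left out. A gene also needed an FPKM (the read count scaled by gene model length and by the library's summed count) of at least 1 in at least 1 library. Of 94 rows whose name fits, 88 met this, out of 12394 genes that met it among 18755 listed. The 6 rows below it were Cox4i2, Cox6a2, Cox7a1, Cox7b2, Ndufa3 and Atp5mc1, with 0 to 23 reads per library. The 88 members were 75 subunit rows and 13 assembly factors, which build a complex without staying in it. Subunits fell into 6 core and 30 accessory rows of complex I, 4 of complex II, 7 of complex III, 12 of complex IV and 16 of the ATP synthase. Ndufa4 carries a complex I name but is a complex IV subunit, and was placed there. Cox6b2, Cox8a, Cox8b and Cox8c were not analysed here.

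The cells came from the cerebral cortex of Sprague Dawley embryos at embryonic day 16 and were kept for 24 h in Neurobasal with B27 on 1 of the hydrogels SFMA, N-SFMA, L-SFMA or NL-SFMA. Each hydrogel had 5 parallel wells, 100000 cells per well and 1 library of poly(A) RNA. The sources used here give neither what N and L stand for nor whether wells were pooled. There was no replicate library, so a difference between libraries is a description with no test, and intervals below are exact 95% intervals for counting error only. Summed counts ran from 14172205 on NL-SFMA to 17553098 on SFMA. All 14 neuronal markers were found above the level filter, with a summed 3078 to 4135 FPKM. Markers of radial glia summed to 1568 FPKM on SFMA and 712 to 804 on the other hydrogels, and 6 erythroid genes to 548 on SFMA and 70.1 to 162 elsewhere. Microglial markers summed to 5.64 to 22.2 FPKM, with P2ry12 at 0 reads on N-SFMA and C1qa, C1qc and Trem2 at 0 on NL-SFMA. Astrocyte markers summed to 106 FPKM on SFMA and 42.5 to 70.3 elsewhere, and markers of endothelial cells to at most 0.697 in any library. The part of these cell types in the differences of the members was not tested. Fewer cells of a type and less RNA per cell cannot be told apart in such bulk samples.

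Complexes I to IV pass electrons from NADH and succinate to oxygen in the inner mitochondrial membrane, and complexes I, III and IV pump protons as they do so. The ATP synthase lets the protons back and makes ATP, which neurons use largely to restore ion gradients. Most subunits are encoded in the nucleus, made in the cytosol and imported, while a small set of membrane subunits is encoded in mitochondrial DNA, so each complex except complex II is built from the products of both genomes.

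Most members were lower on each modified hydrogel than on SFMA, and lowest on NL-SFMA. Their share of all counted reads was 1.44% on SFMA and 0.731% on NL-SFMA, with 1.09% on N-SFMA and 0.923% on L-SFMA between. SFMA was the highest of the 4 libraries for 83 of 88 members, against 36.7% of all tested genes, and NL-SFMA was the lowest for 72, against 44% of all tested genes. The median log2 difference of subunits, on the log2(FPKM + 1) scale used for every difference here, was -0.56 on N-SFMA and -0.82 on L-SFMA, and reached -1.32 on NL-SFMA. The medians of all tested genes were -0.02, 0.05 and -0.10.

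A gene was called when it was at least 1.5-fold apart on that scale. On N-SFMA 35 of 75 subunits were lower, where 10.7% of all tested genes were lower. On L-SFMA 54 were lower, where 11.1% of all tested genes were. On NL-SFMA 62 were lower, where 29.3% of all tested genes were. No member was called higher on any hydrogel, where 7.24%, 14.8% and 21.6% of all tested genes were higher on N-SFMA, L-SFMA and NL-SFMA. The 3 comparisons share the SFMA library, so they are not independent of one another. Compared directly, the median over the members was -0.69 for NL-SFMA against N-SFMA and -0.47 for NL-SFMA against L-SFMA.

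**Figure D1:**
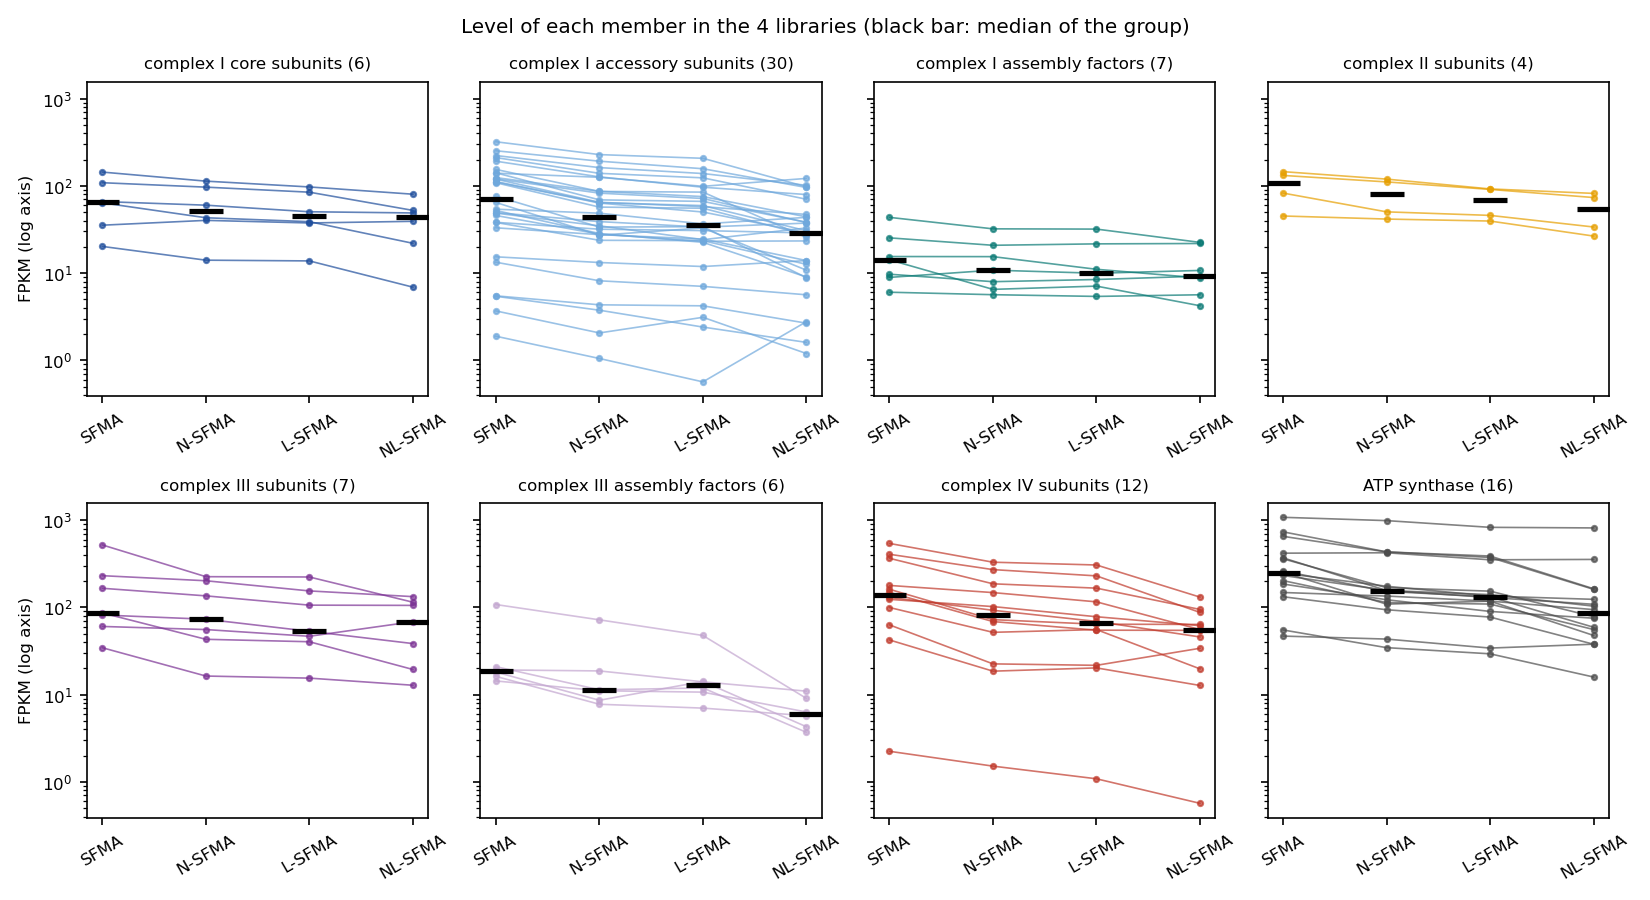
FPKM of each member (log axis) in the 4 libraries, 1 line per gene, in 8 panels by complex and role, with the median of each panel as a black bar. Most lines descend from SFMA to NL-SFMA, and the complex I assembly factors are the flattest panel.

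Gene length moved with these differences and had to be set beside them. Across all 12394 tested genes the difference from SFMA ran with the log2 length of the gene model. The Pearson r across genes was 0.46 on N-SFMA, 0.53 on L-SFMA, and lay at 0.50 on NL-SFMA; genes share the same libraries and are not independent. The median model was 1343 bases among subunits and 2968.5 bases among all tested genes. Among genes under 1000 bases, all 889 tested genes had median differences of -0.46, -0.58 and -0.89, and the 31 subunits had -0.79, -0.96 and -1.85. In that class all 31 subunits were called lower on NL-SFMA, beside 547 of the 889 tested genes. Among genes of 2000 bases or more, the 8972 tested genes had medians of 0.07, 0.17 and 0.10, and the 18 subunits -0.26, -0.53 and -0.99. Among genes of at least 1000 and under 2000 bases, the 2533 tested genes had medians of -0.29, -0.29 and -0.70, and the 26 subunits -0.40, -0.68 and -0.99. The subunit median was thus below that of all genes in each length class on each hydrogel, by a margin that no replicate could check. On N-SFMA and NL-SFMA the margin was smallest in this middle class.

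A lowess curve of difference on log2 length over all tested genes was then removed, and the remainder is called the length-adjusted difference. The subunit median became -0.26 on N-SFMA and -0.42 on L-SFMA, and was -0.74 on NL-SFMA. By this measure 19 subunits were called lower on N-SFMA (6.78% of all tested genes), 22 on L-SFMA (7.44%), and then 43 on NL-SFMA (18.9%). From the shortest length class to the longest, those on NL-SFMA were 23 of 31, 7 of 26 and 13 of 18 subunits. The tested genes called lower there were 254 of 889, 482 of 2533 and 1608 of 8972. Ndufa1 on NL-SFMA was the 1 subunit called higher, and the assembly factor Ndufaf1 was called higher there too, where 5.79%, 8.12% and 19.1% of all tested genes were higher on N-SFMA, L-SFMA and NL-SFMA. When members and background were limited to genes of at least 5 FPKM, the subunit median on NL-SFMA was -0.48 and 30 subunits were called lower. The model length is the one the authors divided by and need not be the length of the mRNA. Atp5f1c, Ndufb9 and Ndufs7 have models of 7248, 7127 and 6048 bases, and a second row named Cox6b1 has 7960, so the curve subtracts from these short-protein genes what it subtracts from long genes. On L-SFMA a correlation with length of -0.33 over the 88 members remained after the curve was removed.

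**Figure D2:**
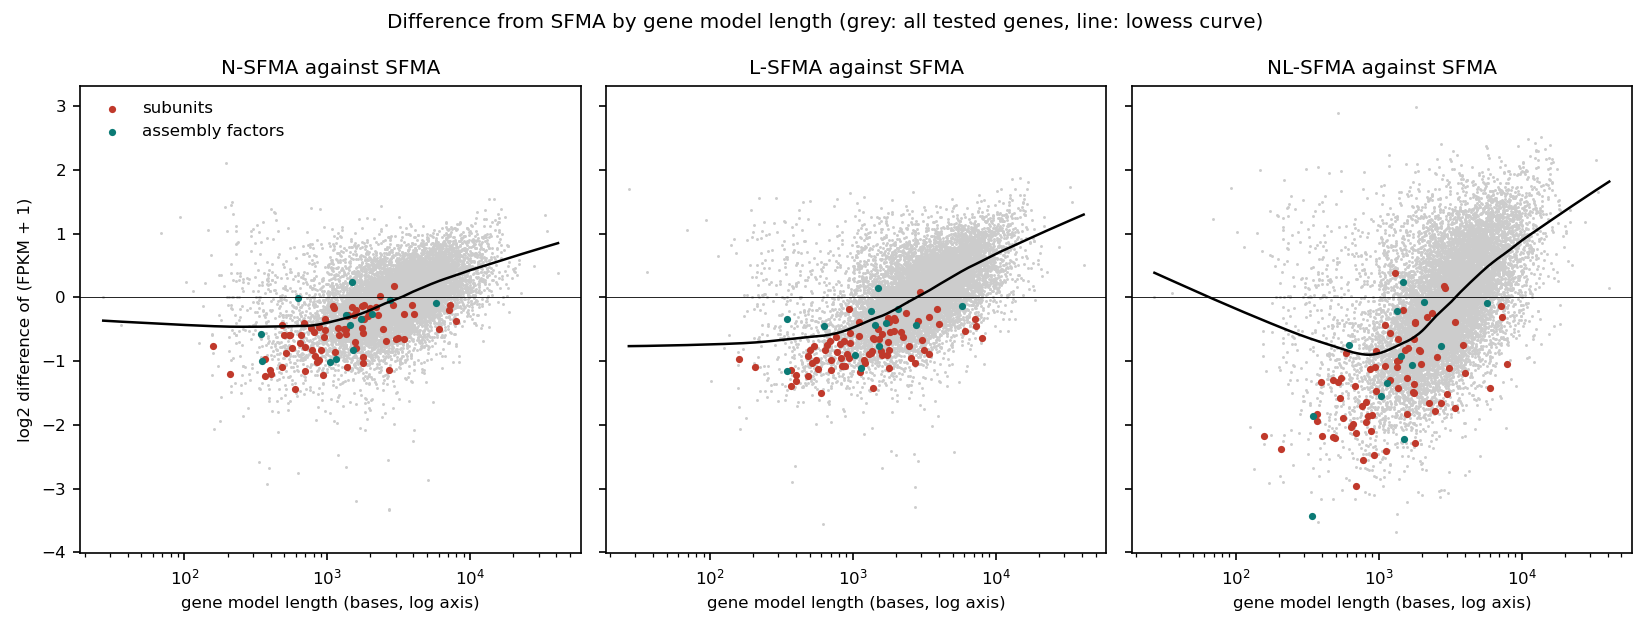
Log2 difference from SFMA (vertical) against gene model length in bases (log axis), for N-SFMA, L-SFMA and NL-SFMA. Grey points are the 12394 tested genes, the black line the lowess curve, red points the 75 subunits and green points the 13 assembly factors; most red points lie below the line in every panel.

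Promoters of such genes are known to hold sites for NRF1, for the ETS family factor GABP and for YY1. RefSeq promoters of build GRCr8, from 250 bases before to 50 after the start, were matched by symbol or identifier to 79 member rows, which share 78 promoters. Letters were searched on both strands: GCGCATGC for the NRF1 core, CCGGAAG for ETS and AANATGGC for YY1. The NRF1 core was in 14.1% of member promoters and 5.58% of the 9230 promoters of tested genes. The ETS letters were in 29.5% and 19.1%, and the YY1 letters in 37.2% and 11.1%. At least 1 of the 3 was found in 47 of 78 member promoters, or 60.3%, and in 31.4% of those of tested genes. The members Atp5me, Ndufa6 and Sdhb held all 3, as did 17 of the 9230 promoters of tested genes, and they are shown because they place the 3 motifs in different orders. Each window runs from 200 bases before the start to 30 from it onward, 5′ to 3′ on the gene's strand, with the motif letters in capitals. Atp5me is at chr14:1464660-1464889 on the plus strand, Ndufa6 at chr7:115750288-115750517 on the minus strand and Sdhb at chr5:158547734-158547963 on the plus strand.
Atp5me: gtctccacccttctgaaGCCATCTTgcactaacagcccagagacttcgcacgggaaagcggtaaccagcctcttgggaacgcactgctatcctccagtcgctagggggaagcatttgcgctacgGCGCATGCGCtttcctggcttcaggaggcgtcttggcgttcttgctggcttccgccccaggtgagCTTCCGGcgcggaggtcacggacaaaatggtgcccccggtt
Ndufa6: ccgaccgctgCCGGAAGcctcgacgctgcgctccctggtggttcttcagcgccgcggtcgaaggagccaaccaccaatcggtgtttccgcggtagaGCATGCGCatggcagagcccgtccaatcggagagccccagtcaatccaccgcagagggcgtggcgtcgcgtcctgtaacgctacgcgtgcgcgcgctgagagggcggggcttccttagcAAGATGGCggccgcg
Sdhb: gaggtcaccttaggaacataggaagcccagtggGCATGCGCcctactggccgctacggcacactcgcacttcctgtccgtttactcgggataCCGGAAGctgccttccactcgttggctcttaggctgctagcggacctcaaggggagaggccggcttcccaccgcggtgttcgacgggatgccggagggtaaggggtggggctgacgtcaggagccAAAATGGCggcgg
In Atp5me an NRF1 core overlaps its own reverse complement, and the ETS letters lie just before the start. In Ndufa6 and Sdhb the YY1 letters lie after the start and the ETS letters before it. A match is a stretch of letters and not a measured binding site. The YY1 letters hold an ATG, so matches after the start may overlap a translation start, which was not checked. On NL-SFMA the 3 genes were at -2.38, -1.32 and -0.83, with length-adjusted differences of -1.91, -0.54 and -0.28, so genes sharing all 3 motifs differed widely in size of change. The Atp5me model has 207 bases, at the short end of the length curve, which limits its adjusted value.

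Complex I oxidises NADH and hands the electrons to ubiquinone through iron-sulfur clusters in core subunits inherited from bacteria. The 6 core genes had median differences of -0.25, -0.45 and -0.94 on N-SFMA, L-SFMA and NL-SFMA, and 0, 1 and 4 of them were called lower. After length adjustment the medians were 0.05, -0.12 and -0.22, and 1, 1 and 2 were called lower. Beside these counts and those of the groups below, 10.7%, 11.1% and 29.3% of all tested genes were lower. After length adjustment the shares were 6.78%, 7.44% and 18.9%. Levels are given below in the order SFMA, N-SFMA, L-SFMA, then NL-SFMA. Ndufs1, which carries clusters of the electron path, stood at 35.4, 40.2, 37.6 and 39.2 FPKM. It was lowest on SFMA, unlike most members, and the NL-SFMA to SFMA ratio of CPM (the read count scaled by the library's summed count alone) was 1.11 (interval 1.04 to 1.18).

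Ndufv1, which binds NADH, stood at 109, 96.7, 84.7 and 52.4 FPKM in the same order, 2.08-fold lower on NL-SFMA (1.95 to 2.21). Its iron-sulfur partner Ndufv2 stood at 144, 113, 97.2 and 80.3 FPKM, and Ndufs3, a core subunit of the hydrophilic arm, at 66.1, 60.1, 50.5 and 48.9. All 3 descended in this order of hydrogels, although the difference of Ndufs3 on NL-SFMA, -0.43, did not pass 1.5-fold. Ndufs8 and Ndufs7 carry the clusters nearest to ubiquinone. Ndufs8 stood at 63.9, 43.1, 38.9 and 22 FPKM, 2.91-fold lower on NL-SFMA (2.65 to 3.20). Ndufs7 stood at 20.2, 14.1, 13.8 and 6.91 FPKM, 2.93-fold lower (2.67 to 3.21). These last clusters of the path were the lowest core genes on NL-SFMA relative to SFMA, with length-adjusted differences of -0.87 and -1.94, and Ndufs3 and Ndufs1 the highest, at 0.42 and 0.30.

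The 30 accessory rows, which surround the core and stabilise it, had medians of -0.57, -0.80 and -1.31, and 15, 22 and 23 were called lower. After length adjustment 6, 7 and 17 were called lower. The 12 Ndufb and Ndufc genes, most of them in the membrane arm, had -0.57, -0.75 and -1.55. Ndufb6 had the lowest difference of any subunit on NL-SFMA (-2.97), with levels of 76.3, 33.7, 34.1 and 8.87 FPKM, which is 8.60-fold lower (6.90 to 10.8). Ndufa13, also known as GRIM-19, stood at 154, 86.3, 84.8 and 25.6 FPKM, 6.03-fold lower (5.32 to 6.85). In both genes N-SFMA and L-SFMA lay together and well above NL-SFMA. The more abundant Ndufb8 stood at 320, 228, 207 and 97.6 FPKM and Ndufb10 at 253, 192, 157 and 95.9, with differences of -1.71 and -1.39 on NL-SFMA.

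Some accessory genes did not follow this order. Ndufa9, at the joint between the arms, stood at 140, 125, 98.9 and 122 FPKM, and Ndufb5 at 48.7, 34.8, 24.2 and 32.9. For both, L-SFMA and not NL-SFMA was lowest, and neither passed 1.5-fold on NL-SFMA. Ndufa1 was barely detected, at 1.89, 1.05, 0.567 and 2.78 FPKM from 43, 21, 12 and 51 reads. It was the only accessory row with its highest level on NL-SFMA. Its NL-SFMA to SFMA ratio of 1.47 had an interval of 0.960 to 2.26 that includes no difference. It lay just inside the level filter, and Cox7a1, at most 0.815 FPKM, just outside it.

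The 7 Ndufaf assembly factors of complex I had medians of -0.26, -0.22 and -0.21, so their median on NL-SFMA was near that of all tested genes, while the subunits they assemble were lower. On NL-SFMA 3 of the 7 were called lower. Ndufaf6 stood at 14.2, 6.51, 7.10 and 4.23 FPKM, 3.36-fold lower (2.54 to 4.51). Ndufaf3 stood at 43.6, 32.2, 32.0 and 22.5 FPKM, 1.94-fold lower (1.73 to 2.16). The third, Ndufaf2, a partner of late assembly steps, stood at 15.5, 15.5, 11.1 and 8.81 FPKM. The other 4 stayed within 1.5-fold. Ndufaf1, which acts on the membrane arm, stood at 8.93, 10.8, 9.97 and 10.7 FPKM, and Ndufaf5, which modifies Ndufs7, at 25.4, 20.8, 21.6 and 21.9. Ndufaf7 stood at 6.04, 5.66, 5.41 and 5.65 FPKM. Their models had a median of 1436 bases and those of the accessory subunits a median of 950. The length-adjusted median of the 7 was -0.07, -0.02 and 0.10. For the accessory subunits it was -0.24, -0.42 and -0.70. With 7 genes, 1 library each and no test, the gap is a description. Of 11 further complex I assembly genes that the names above do not take in, 6 were called lower on NL-SFMA and none higher. Among all tested genes 29.3% were lower there and 21.6% higher. The median of the 11 was -0.62. After length adjustment their median was -0.24, and 1 was called lower and none higher, beside 18.9% lower among all tested genes.

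**Figure D3:**
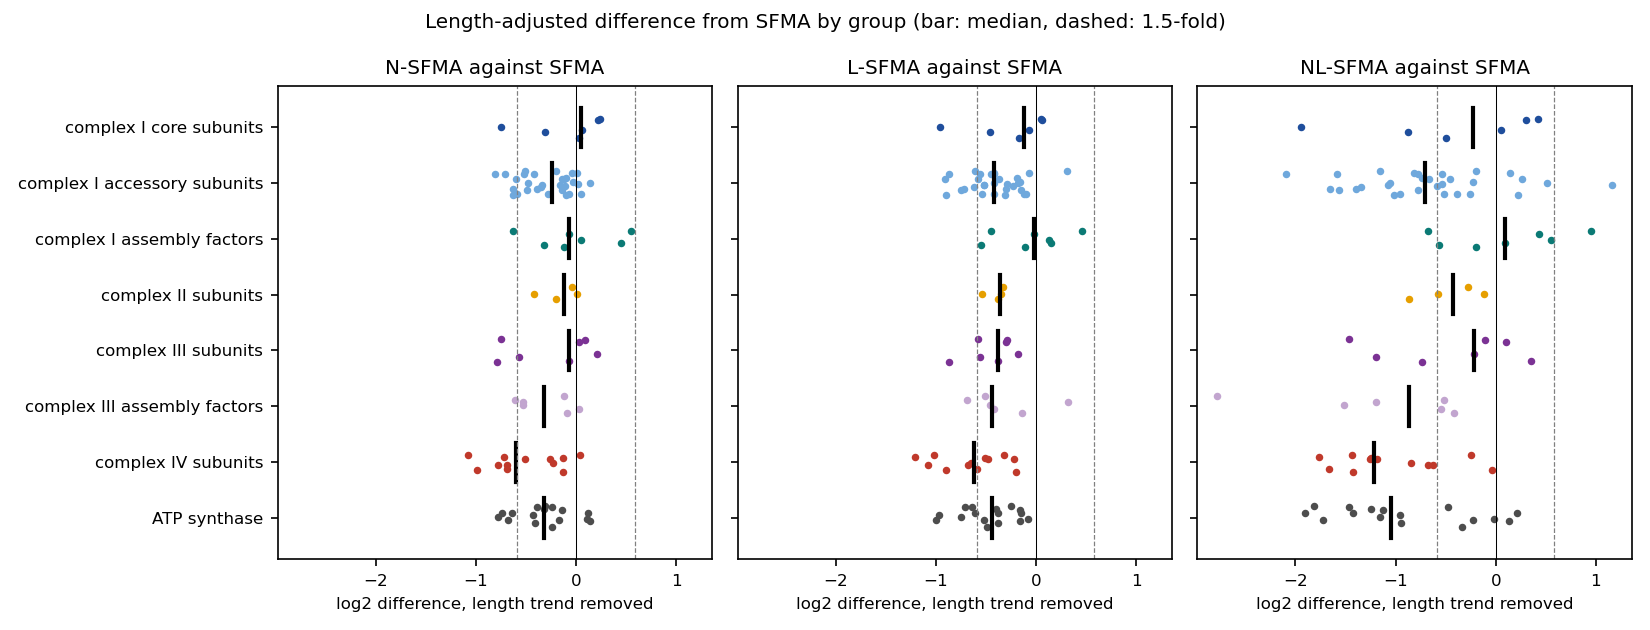
Length-adjusted log2 difference from SFMA of each member by group, with the median as a black bar and the 1.5-fold limits dashed. Complex IV and the ATP synthase have the lowest subunit medians on NL-SFMA, and complex I assembly factors lie around 0.

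Complex II oxidises succinate and is also an enzyme of the tricarboxylic acid cycle. Its 4 genes were called lower in 1, 2 and 4 cases, with medians of -0.26, -0.59 and -0.83. After length adjustment they were called lower in 0, 0 and 1 cases, with medians of -0.12, -0.36 and -0.43. The flavoprotein Sdha stood at 45.2, 41.7, 39.5 and 26.6 FPKM, and the iron-sulfur subunit Sdhb at 132, 111, 91.1 and 73.5. Of the membrane anchors, Sdhc stood at 146, 120, 92.3 and 82.0 FPKM, and Sdhd at 82.7, 50.4, 45.9 and 33.8. All 4 genes descended from SFMA to NL-SFMA in the same order. The ratios of SFMA to NL-SFMA were 1.7 (1.60 to 1.81) for Sdha, 1.79 (1.7 to 1.89) for Sdhb, 1.78 (1.68 to 1.88) for Sdhc and 2.45 (2.25 to 2.66) for Sdhd. Complex II had the narrowest range of differences on NL-SFMA among the 8 groups, from -1.27 to -0.74. With 4 genes it was also the smallest group, and a range tends to widen with more genes. In the tricarboxylic acid cycle list, 5 of 18 genes were called lower on NL-SFMA, a share near the 29.3% of all tested genes, and 1 higher, with a median of -0.28.

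Complex III passes electrons from ubiquinol to cytochrome c. Its 7 subunits had medians of -0.29, -0.64 and -1.07, with 3, 5 and 6 called lower. After length adjustment the medians were -0.07, -0.38 and -0.22, with 2, 1 and 3 called lower. On NL-SFMA the large core proteins and the Rieske iron-sulfur protein differed least from SFMA. Uqcrc1 stood at 231, 202, 154 and 133 FPKM and Uqcrfs1 at 166, 136, 106 and 105. Uqcrc2 stood at 60.5, 55.7, 46.6 and 68.5 FPKM and was highest on NL-SFMA, with a ratio to SFMA of 1.13 (1.08 to 1.19). Small subunits differed more there. Uqcrq stood at 520, 225, 223 and 115 FPKM, 4.53-fold lower on NL-SFMA (4.17 to 4.94). Uqcr10 stood at 86.4, 43.1, 40.4 and 19.4 FPKM, 4.45-fold lower (3.88 to 5.12). The ratio of Uqcrq to Uqcrc1, both in FPKM, was 2.25 on SFMA and 0.863 on NL-SFMA, so the order of these genes by level turned over. Cyc1, the cytochrome c1 subunit that the names do not take in, stood at 214, 160, 153 and 83.0 FPKM, a difference of -1.36 on NL-SFMA.

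Unlike the Ndufaf genes, all 6 Uqcc assembly factors of complex III were called lower on NL-SFMA, and 3 of 6 on each of N-SFMA and L-SFMA. Their medians were -0.70, -0.59 and -1.60, and -0.32, -0.44 and -0.87 after length adjustment. After that adjustment 1, 1 and 3 of the 6 were called lower. Uqcc1 and Uqcc2 bind newly made cytochrome b. Uqcc2 stood at 108, 72.0, 47.6 and 9.05 FPKM, from 649, 381, 267 and 44 reads. It was 11.9-fold lower on NL-SFMA than on SFMA (8.77 to 16.6), the largest difference of any member, and -2.78 after length adjustment. Its model has 343 bases. On NL-SFMA the curve removed less from a model this short than from one of 684 bases, so the adjusted value depends on the short end of the curve. Uqcc1 stood at 19.2, 18.7, 14 and 11 FPKM, 1.75-fold lower (1.56 to 1.97). Uqcc3, which acts after them, stood at 20.9, 11.3, 11.9 and 3.70 FPKM, 5.66-fold lower (4.47 to 7.26). Uqcc4 and Uqcc5 had differences of -1.07 and -1.35, and Uqcc6 of -1.86. All 6 were lowest on NL-SFMA.

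Complex IV, cytochrome c oxidase, reduces oxygen to water. All 12 of its rows were called lower on L-SFMA and on NL-SFMA and 7 on N-SFMA, with medians of -0.82, -0.87 and -1.57, and -0.60, -0.62 and -1.22 after length adjustment. After that adjustment 6, 7 and 10 of the 12 were called lower on N-SFMA, L-SFMA and NL-SFMA. Cox6a1 stood at 541, 330, 306 and 131 FPKM, 4.12-fold lower on NL-SFMA (3.87 to 4.39), and Cox6b1 at 406, 271, 230 and 87.5, 4.64-fold lower (4.26 to 5.06). Cox5b stood at 99.7, 51.8, 55.7 and 19.7 FPKM, 5.05-fold lower (4.59 to 5.56), and Cox4i1, which joins early in assembly, at 179, 148, 116 and 55.6, 3.21-fold lower (3.04 to 3.38). Ndufa4 stood at 42.3, 18.6, 20.2 and 12.7 FPKM, with differences of -1.15, -1.03 and -1.66. Each of these was highest on SFMA and lowest on NL-SFMA. Ndufa4l2, a hypoxia-induced paralog of Ndufa4 counted above by its name with complex I, stood at 3.69, 2.06, 3.12 and 1.2 FPKM.

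Cox7b had a different order. It stood at 63.0, 22.5, 21.7 and 34.0 FPKM, so NL-SFMA lay between SFMA and the other 2 hydrogels. It was 2.80-fold lower on N-SFMA (2.39 to 3.29), 2.91-fold lower on L-SFMA (2.49 to 3.41) and 1.85-fold lower on NL-SFMA (1.61 to 2.14). Cox7a2 stood at 161, 72.3, 64.1 and 63.8 FPKM and Cox7c at 148, 68.8, 54.8 and 54.5, each with about the same level on L-SFMA and NL-SFMA. Cox7a2l, which links complexes III and IV in supercomplexes, stood at 124, 102, 78.1 and 61.8 FPKM. Muscle and lung isoforms were near zero: Cox4i2 had 4, 7, 2 and 4 reads, Cox6a2 had 3, 0, 1 and 2, and Cox7a1 had 23, 21, 15 and 9. The ubiquitous isoforms therefore carried nearly all the reads of these families. Of 18 complex IV assembly genes, 6 were called lower and 2 higher on NL-SFMA, with a median of -0.42, beside 29.3% lower and 21.6% higher among all tested genes. Cmc2 (-1.65), Pet100 (-1.45) and Coa7 (-1.11) were lower there, and Lrpprc, which stabilises mitochondrial mRNA, was higher, at 22.1 FPKM on SFMA and 48.0 on NL-SFMA.

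The ATP synthase held the most abundant members, which summed to 5377, 3735, 3206 and 2332 FPKM. Its 16 genes had medians of -0.59, -0.88 and -1.76, with 9, 12 and 13 called lower. After length adjustment the medians were -0.32, -0.44 and -1.04, with 4, 6 and 10 called lower. Atp5f1a, Atp5f1b and Atp5f1c differed least on NL-SFMA before length adjustment. Atp5f1b, the beta subunit that holds the catalytic sites, was the highest member in every library, at 1078, 988, 827 and 815 FPKM, 1.32-fold lower on NL-SFMA (1.3 to 1.35). The alpha subunit Atp5f1a stood at 418, 423, 351 and 355 FPKM, 1.18-fold lower (1.15 to 1.21). Atp5f1c, the gamma subunit of the rotating shaft, stood at 46.9, 43.3, 34.2 and 37.8 FPKM. None of these 3 passed 1.5-fold on any hydrogel before length adjustment. The ratio of Atp5f1a to Atp5f1b was 0.388, 0.428, 0.424 and 0.435 in the 4 libraries.

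The foot of the shaft differed from the head. Atp5f1d, the delta subunit, stood at 132, 93.9, 77.5 and 37.8 FPKM, 3.51-fold lower on NL-SFMA (3.30 to 3.72). Atp5f1e, the epsilon subunit, stood at 735, 433, 374 and 161 FPKM, 4.56-fold lower (4.08 to 5.11). Its ratio to Atp5f1b went from 0.681 on SFMA to 0.438, 0.452 and 0.198. The gamma, delta and epsilon subunits are present in equal number in the enzyme, and their transcripts differed from SFMA by unequal amounts. The Atp5f1e model has 159 bases, which gives the length curve little support, and its length-adjusted difference was -1.82.

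The membrane part, with the rotating c ring and the subunits that hold dimers together, was called lower for 5, 6 and 6 of its 6 genes. Its medians were -0.71, -0.93 and -1.91, and -0.50, -0.44 and -1.20 after length adjustment. After that adjustment 3, 2 and 5 of the 6 were called lower. Atp5me stood at 252, 109, 118 and 47.7 FPKM, 5.28-fold lower on NL-SFMA (4.42 to 6.36), and Atp5mf at 261, 153, 132 and 59.3, 4.41-fold lower (4.04 to 4.82). Several genes encode the same c subunit with different import sequences. Atp5mc2 stood at 652, 432, 388 and 164 FPKM, 3.99-fold lower (3.77 to 4.21), and Atp5mc3 at 232, 156, 130 and 109, 2.14-fold lower (2.03 to 2.25). Their ratio was 2.81, 2.76, 2.99 and 1.51, so it stood lower on NL-SFMA than in the other 3 libraries. Atp5mc1 had 1 read in all 4 libraries together. The peripheral stalk had medians of -0.55, -0.88 and -1.14, from Atp5pb at -0.65 to Atp5pf at -1.84 on NL-SFMA. After length adjustment its medians were -0.21, -0.45 and -0.36, and those of the 5 genes of head and shaft -0.31, -0.25 and -0.96. The inhibitor Atp5if1, which blocks ATP hydrolysis when the proton gradient fails, stood at 360, 168, 154 and 78.3 FPKM, 4.60-fold lower on NL-SFMA (4.2 to 5.06). Its ratio to Atp5f1b was 0.334, 0.170, 0.186 and 0.0962.

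**Figure D4:**
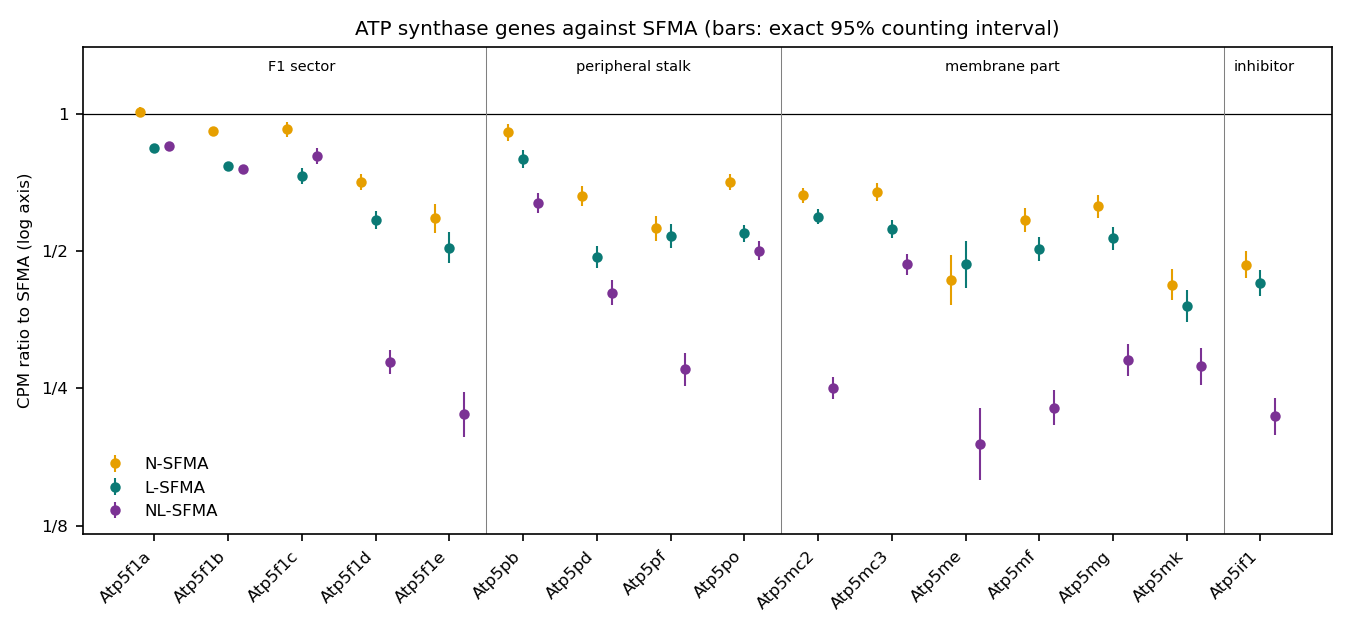
CPM ratio to SFMA (log axis) of the 16 ATP synthase genes on N-SFMA, L-SFMA and NL-SFMA, ordered by position in the enzyme, with exact 95% counting intervals. Atp5f1a, Atp5f1b and Atp5f1c lie closest to 1 on NL-SFMA, and Atp5me is lowest on NL-SFMA.

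Subunits of the same complexes encoded in mitochondrial DNA went the other way on NL-SFMA. Their reads and the rest of the mitochondrially encoded genes made up 2.68%, 2.23%, 2.33% and 5.89% of counted reads. On NL-SFMA the 7 complex I genes had a median of 1.64, with 6 called higher, beside -0.94 for the nuclear core genes. Mt-cyb stood at 2188, 2054, 2220 and 5405 FPKM, a difference of 1.3 on NL-SFMA, beside -1.07 for the nuclear subunits of complex III. The 3 complex IV genes had a median of 1.05, with 2 called higher, and Mt-atp6 stood at 0.83. Among all tested genes 21.6% were higher there. On N-SFMA the medians were -0.23, -0.09, -0.33 and -0.42 in the order of these complexes, and on L-SFMA -0.08, 0.02, -0.51 and -0.50. On N-SFMA Mt-nd3 (-1.34) and Mt-nd4l (-1.05) were called lower and none higher, beside 10.7% lower and 7.24% higher among all tested genes. On L-SFMA Mt-nd3 (-1.45) and Mt-co2 (-0.60) were called lower and Mt-nd5 (0.65) higher. The larger share of mitochondrially encoded reads takes reads from all other genes of that library, and rescaling by TMM or by DESeq2 size factors was among 7 alternatives under which the subunit median on NL-SFMA lay between -1.42 and -1.22. Its part in the differences of the members was not tested.

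**Figure D5:**
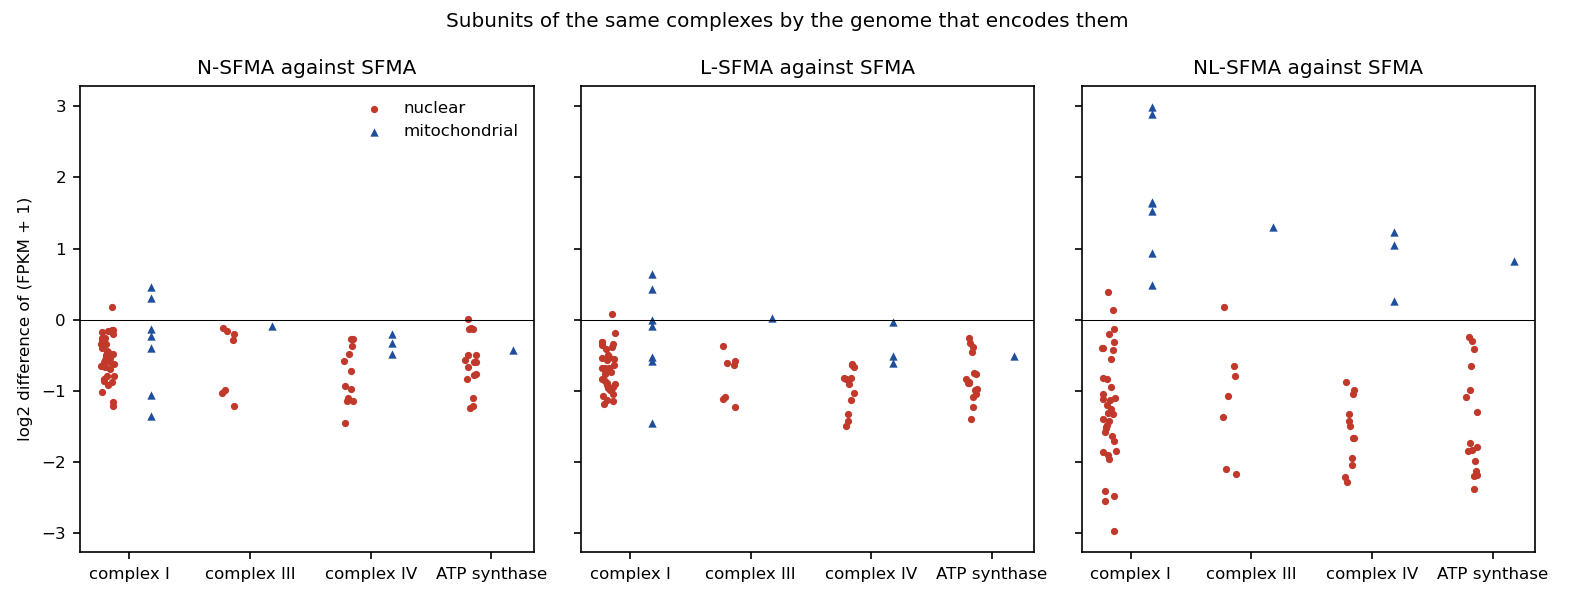
Log2 difference from SFMA of nuclear-encoded subunits (red circles) and mitochondrially encoded subunits (blue triangles) of complexes I, III, IV and the ATP synthase. On NL-SFMA the mitochondrially encoded genes lie above 0 and most nuclear genes below it.

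Other mitochondrial lists differed less than the subunits. Of 16 electron carriers and related dehydrogenases, 10 were called lower on NL-SFMA and none higher, with a median of -0.76, among them Coq7 of ubiquinone synthesis (-1.63) and cytochrome c, Cycs (-1.41). Of 12 genes of cristae and supercomplexes, 9 were lower and 1 higher with a median of -1.03, and Higd2a stood at 179, 104, 118 and 43.6 FPKM. Of 10 carriers and porins, 5 were lower and none higher, and the ADP/ATP carrier Slc25a4 stood at 578, 429, 416 and 222 FPKM. Of 5 ATP synthase assembly genes, 3 were lower and none higher, with a median of -0.59. Beside these counts, 29.3% of all tested genes were lower and 21.6% higher. After length adjustment these lists had 4 of 16, 5 of 12, 2 of 10 and 1 of 5 genes lower, beside 18.9% of all tested genes. The adjusted medians were -0.37, -0.33, -0.10 and 0.24 in that order. After adjustment 1 gene of cristae and supercomplexes was called higher, and none of the other lists. Of 12 regulators of mitochondrial biogenesis, 1 was lower and 2 were higher before length adjustment, with a median of -0.05. Among them Nrf1, whose motif is searched above, stood at 6.68, 6.03, 6.17 and 6.13 FPKM, Gabpa at 5.80, 6.73, 6.52 and 10.9, and Yy1 at 48.2, 44.4, 52.9 and 45.5. Before length adjustment Nrf1 and Yy1 stayed within 1.5-fold in all 3 comparisons, and Gabpa was called higher on NL-SFMA (0.81). After it, Nrf1 was called lower on L-SFMA (-0.73) and NL-SFMA (-0.92), and Yy1 higher on NL-SFMA (0.64). Gabpa, at 0.47 on NL-SFMA after length adjustment, was no longer called.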

How the data were processed

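Per the labels, poly(A) RNA was extracted with Trizol, 1.5 µg per library was used, and NEBNext Ultra libraries were sequenced on an Illumina NovaSeq. The submitters' processing notes name HISAT2 and HTSeq 0.13.5, and the builds mRatBN7.2 and GRCh38 without a role. The sources used here give no strand setting, filters or role of either build. The treatment labels L@SFMA and NL@SFMA were read as L-SFMA and NL-SFMA. The authors deposited for each library raw read counts and FPKM values per gene. The deposited FPKM is the count over model length and summed count, from which model lengths were recovered as whole numbers. It removes length and depth as scale factors, and does not remove a length trend of the differences between libraries.

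Differences are log2(FPKM + 1), computed here from the deposited FPKM; the pseudocount understates changes of low genes. Genes with at least 1 FPKM in at least 1 library were tested. Folds of single genes are CPM ratios from the deposited counts, with exact (Clopper-Pearson) 95% intervals, which cover counting error only, since reads amplified without molecular identifiers may copy 1 molecule. The lowess curve (fraction 0.3, statsmodels 0.14.6) was checked on simulated data with a straight-line trend on log2 length. That check does not cover the bend of the NL-SFMA curve at the shortest models. edgeR 4.0.16 and DESeq2 1.42.0 gave alternative scaling factors only. No p-value was computed, since each hydrogel had 1 library. Alternatives were the scaling, the pseudocount, the level filter and the form of the length curve, and 2 added after seeing the data.

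The members and lists were chosen with earlier results of these data known. Named per group were the 2 members with the highest mean FPKM and the 2 lowest and 2 highest length-adjusted differences on NL-SFMA, at 5 FPKM or more, plus isoform families, core subunits, complex II and Atp5if1 fixed by name, and up to 4 genes past 2-fold per other list. Other named genes (Cox7c, Ndufaf2, Ndufa1, Ndufa6, Ndufb9, Ndufs6, Ndufs6l1, Ndufv3, Uqcc6, Atp5f1c, Atp5f1d, Atp5mf, Atp5pb, Atp5pf, Nrf1, Gabpa, Yy1, the pseudogenes and mitochondrially encoded genes not past 2-fold) were chosen after their values were seen. Scaf1, a splicing-related gene listed under cristae by mistake, was taken off that list after values were seen. Processed pseudogenes and near-copies can share reads with members, and the sources used here do not say how the authors' counting split them.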

Additional observations from a re-analysis of the deposited data

Results flagged for a closer look

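Read as combinations of 2 letters that mean the same in each hydrogel's name, 2 members stepped at least 1.5-fold in opposite directions with and without the other letter. The difference between the steps was not tested, since each hydrogel had 1 library. Ndufa1 stood 0.88 below SFMA on L-SFMA (-0.88) and 0.88 higher on NL-SFMA than on N-SFMA, a difference between the steps of 1.76 on the log2 scale. It rests on 43, 21, 12 and 51 reads, and 75 of the 12394 tested genes had such opposite steps for L. Cox7b stood at -1.44 on N-SFMA against SFMA and at 0.63 on NL-SFMA against L-SFMA, a difference of 2.07, from 659, 207, 211 and 287 reads. For N, 61 of the tested genes had such steps.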

How the results depend on the processing

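No paired analysis was possible because each hydrogel had 1 library, and no library could be left out. Of the main counts and medians under alternatives, 121 values kept their size and 5 moved. With at least 5 FPKM, the length-adjusted subunit median was -0.298 on L-SFMA and -0.476 on NL-SFMA. With DESeq2 size factors the subunit median on L-SFMA was -0.888. Among members of at most 2000 bases, an alternative chosen after seeing the data, 12 subunits were called lower on N-SFMA and 11 on L-SFMA after length adjustment. This alternative leaves out the 18 longer subunits, which held 7 and 11 of the 19 and 22 called in the main run. Its counts were compared by number and not by share, so they moved because rows were left out. The longer subunits also held 13 of the 43 called lower on NL-SFMA after length adjustment. Over the alternatives, 58 to 62 subunits were called lower on NL-SFMA, and 30 to 42 after length adjustment. Of the values of named genes, 1314 kept their size, 196 moved and 2 reversed: the length-adjusted difference of Cox7a2 on NL-SFMA, -0.62, was 0.064 with at least 5 FPKM and 0.127 when a plane on length and level was removed. The cause was not tested. Depth limits genes such as Ndufa1 and Ndufs6, with few reads.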

Other observations

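Rows of near-copies of members carried reads. Ndufs6 stood at 5.43 FPKM on SFMA and 1.61 on NL-SFMA, while Ndufs6l1 stood at 52.2 and 9.02. Of the 8 rows named as pseudogenes, Atp5mpl-ps1 stood at 46.6, 23.6, 19.7 and 13.7 FPKM in the order SFMA, N-SFMA, L-SFMA, then NL-SFMA, and Ndufa3-ps3 at 7.76, 1.63, 2.41 and 1.01, while Ndufa3 itself had 1, 7, 10 and 3 reads. Ndufv3-ps1 stood at 4.88, 6.94, 4.87 and 10.4 FPKM and was highest on NL-SFMA, unlike Ndufv3, at 33.1, 27.6, 24.6 and 13.9.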
